A study of Mus musculus with 2 samples.

Results

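The DEAD box (Ddx) and DEAH box (Dhx) genes encode RNA helicases, enzymes that spend ATP to open RNA duplexes or to strip proteins from RNA. The genes described here are the mouse RefSeq protein-coding genes whose symbols begin with Ddx or Dhx followed by a digit, without Ddx58, Dhx58, Ddx3x and Ddx3y. This rule gave 49 genes, 34 Ddx and 15 Dhx, of 21887 protein-coding genes in the GRCm38.p6 table, and it used no measured value. Histone H4 acetylated at lysine 16 (H4K16ac) was mapped by CUT&Tag, in which an antibody guides a transposase to cut and tag DNA beside the modified histone. The material was mouse bone marrow-derived macrophages (BMDMs), cultured in M-CSF, the macrophage growth factor, at 20 ng/ml and then given R848, an agonist of TLR7, at 100 ng/ml for 2 h. The cells were either wild type (WT) or deficient in KAT8 (labelled KAT8-cKO), the acetyltransferase responsible for most H4K16ac in mammalian cells. Both groups received M-CSF and R848, so no unstimulated cells enter any comparison. Each genotype is represented by 1 library and 1 peak list. The sources used here do not give the Cre driver, the completeness of the deletion or the number of animals behind each library.

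Proteins named for the Asp-Glu-Ala-Asp motif mostly open short duplexes locally, and many are switched on by partners with a MIF4G-type fold. Proteins named for the Asp-Glu-Ala-His motif move along a strand, and several are activated by G-patch proteins. Between them they act at most steps of an RNA's life, from transcription and splicing through ribosome assembly, export and translation to decay, and most are expressed in every cell type. H4K16ac neutralises a lysine in the histone tail that contacts neighbouring nucleosomes, and in mammalian cells it is found at the starts and along the bodies of active genes.

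The WT list held 58229 peaks covering 21.1 Mb and the KAT8-deficient list 55149 peaks covering 18.96 Mb, with median folds of 2.90 and 2.78 over the peak caller's background. Depth is known only through these lists, since the sources used here give no read totals. Fold and q are the authors' peak caller's own values, and with 1 library per group they were set side by side without a test. Kat8 itself had a weak WT peak at a gene end (fold 2.46, −log10 q 0.780) and no KAT8-deficient peak, which does not measure the deletion. Of the markers of the labelled cell type, 10 of 12 macrophage genes had a gene-end peak in WT cells, at folds of 2.06 to 3.62, and 6 of 12 in KAT8-deficient cells, at folds of 2.46 to 3.20. Lyz2 had none in either list, and Csf1r had a WT peak only, at fold 2.06. T cell markers had WT peaks at 3 of 6 genes, B cell markers at 2 of 6, neutrophil markers at 2 of 6 and erythroid markers at 1 of 6. In the KAT8-deficient list each of these 4 marker lists had peaks at 1 of 6 genes. Over all protein-coding genes 46.8% had a gene-end peak in WT cells and 43.3% in KAT8-deficient cells. Marked in both lists were Cd3d (folds 2.89 and 2.76), Cd79b (3.09 and 2.02), S100a8 (3.42 and 2.99) and Klf1 (3.74 and 3.60). The erythroid gene Klf1 was thus above every macrophage marker in both lists. The part of other cells in the results below was not tested.

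The sequences below show what lies upstream of the helicase genes on which the results turn. Each is the 250 bases before an annotated transcription start, credited to RefSeq on GRCm38.p6, read 5′ to 3′ on the gene's strand, with every CG dinucleotide in capitals. Ddx54 (chr5:120612880-120613129, plus strand) had the highest WT fold of all members, and Ddx17 (chr15:79546742-79546991, minus strand) the highest KAT8-deficient fold. Dhx36 (chr3:62506989-62507238, minus strand) stood among the 8 highest in both lists.
Ddx54: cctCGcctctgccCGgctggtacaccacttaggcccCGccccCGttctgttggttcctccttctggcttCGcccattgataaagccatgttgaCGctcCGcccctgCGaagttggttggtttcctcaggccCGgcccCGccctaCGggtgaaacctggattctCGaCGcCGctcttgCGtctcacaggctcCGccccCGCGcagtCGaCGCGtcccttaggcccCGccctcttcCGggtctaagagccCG
Ddx17: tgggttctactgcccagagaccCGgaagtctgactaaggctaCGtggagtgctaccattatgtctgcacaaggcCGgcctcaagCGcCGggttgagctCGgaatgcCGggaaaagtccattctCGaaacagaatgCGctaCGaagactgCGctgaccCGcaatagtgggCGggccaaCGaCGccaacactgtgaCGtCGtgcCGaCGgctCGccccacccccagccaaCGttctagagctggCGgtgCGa
Dhx36: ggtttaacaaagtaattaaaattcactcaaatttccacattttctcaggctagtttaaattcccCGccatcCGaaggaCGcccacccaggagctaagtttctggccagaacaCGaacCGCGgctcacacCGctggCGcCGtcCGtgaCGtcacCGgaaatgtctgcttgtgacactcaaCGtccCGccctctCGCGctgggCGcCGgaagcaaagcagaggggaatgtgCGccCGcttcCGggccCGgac
The next set shows 1 gene marked in WT cells only, 1 marked in KAT8-deficient cells only and 1 marked in neither, namely Ddx49 (chr8:70302472-70302721, minus strand), Ddx25 (chr9:35558471-35558720, minus strand) and Ddx51 (chr5:110653201-110653450, plus strand).
Ddx49: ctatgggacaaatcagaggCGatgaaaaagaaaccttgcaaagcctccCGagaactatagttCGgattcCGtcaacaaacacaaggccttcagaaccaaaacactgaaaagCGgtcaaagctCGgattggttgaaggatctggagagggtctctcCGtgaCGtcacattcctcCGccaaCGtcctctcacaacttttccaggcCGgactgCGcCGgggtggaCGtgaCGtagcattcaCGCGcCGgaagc
Ddx25: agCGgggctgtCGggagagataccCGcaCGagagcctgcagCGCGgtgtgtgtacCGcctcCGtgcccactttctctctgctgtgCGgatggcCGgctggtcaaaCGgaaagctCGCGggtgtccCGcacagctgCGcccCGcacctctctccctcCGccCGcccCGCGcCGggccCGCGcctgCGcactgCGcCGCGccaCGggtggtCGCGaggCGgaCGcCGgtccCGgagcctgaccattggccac
Ddx51: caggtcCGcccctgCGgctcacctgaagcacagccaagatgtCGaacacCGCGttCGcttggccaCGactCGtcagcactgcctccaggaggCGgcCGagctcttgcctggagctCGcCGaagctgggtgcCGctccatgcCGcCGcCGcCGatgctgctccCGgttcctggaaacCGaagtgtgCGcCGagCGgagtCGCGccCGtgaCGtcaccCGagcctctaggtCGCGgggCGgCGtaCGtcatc
The last set holds the start of Ddx50 that lies inside its annotated gene (chr10:62651219-62651468, minus strand) and the member start with the fewest CpG, that of Dhx57 (chr17:80290477-80290726, minus strand).
Ddx50: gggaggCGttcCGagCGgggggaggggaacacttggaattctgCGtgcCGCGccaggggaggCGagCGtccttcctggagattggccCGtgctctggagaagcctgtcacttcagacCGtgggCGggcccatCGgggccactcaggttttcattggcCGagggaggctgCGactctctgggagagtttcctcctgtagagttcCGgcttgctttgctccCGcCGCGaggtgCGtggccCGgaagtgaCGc
Dhx57: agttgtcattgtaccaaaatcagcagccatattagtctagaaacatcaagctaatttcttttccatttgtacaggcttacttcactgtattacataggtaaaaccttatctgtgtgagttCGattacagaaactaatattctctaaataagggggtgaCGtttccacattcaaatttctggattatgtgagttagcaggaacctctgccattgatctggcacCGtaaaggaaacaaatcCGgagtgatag
Ddx25 and Ddx51 carry the most CpG of these, 34 and 32, and Dhx57 the fewest, 4. The other counts are 24 in Ddx54, 23 in Ddx17, 22 in Dhx36, 21 in Ddx50 and 18 in Ddx49.

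Most helicase genes had an H4K16ac peak within 1 kb of a gene end in both genotypes. In WT cells 39 of 49 members were marked, 79.6% (95% exact Clopper-Pearson interval 65.7 to 89.8), where 46.8% of all protein-coding genes were. In KAT8-deficient cells 33 of 49 were marked, 67.3% (52.5 to 80.1), where 43.3% of all genes were. These intervals, and all below, cover counting error over genes only. A peak was called in both lists at 30 members, 61.2%, beside 35.8% of all genes. WT cells alone had a peak at 9 members (18.4%), beside 11.1% of all genes, and KAT8-deficient cells alone at 3 (6.12%), beside 7.52%. The remaining 7 had a peak in neither list (14.3%), beside 45.7%.

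A missing KAT8-deficient call was about as frequent among the helicase genes as among all genes. Of the 39 members marked in WT cells, 9 lacked a KAT8-deficient peak, 23.1% (11.1 to 39.3), and over all WT-marked genes the share was 23.6%. In the opposite direction 3 of 33 KAT8-deficient members lacked a WT peak, 9.09% (1.92 to 24.3), beside 17.4% of all such genes. The members' median WT fold was 3.83 and their median −log10 q 3.46, against 3.42 and 2.78 over all marked genes. In the KAT8-deficient list the medians were 3.27 and 2.66, against 3.13 and 1.93. Members marked in both lists had a median WT −log10 q of 4.63 and those marked in WT cells only 2.198. The same ordering held over all genes, at 3.53 and 1.49, so the WT peaks without a KAT8-deficient call had the lower median.

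A stricter threshold kept the members at or above the level of all genes. With q under 0.05, 36 members were marked in WT cells and 27 in KAT8-deficient cells, where 36.8% and 31.3% of all genes were. With a −log10 q of at least 5, 12 members (24.5%) remained in WT cells and 7 (14.3%) in KAT8-deficient cells, beside 12.4% and 5.99% of all genes. A count above a threshold depends on the depth and background of its library and does not measure a change at a gene.

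**Figure D1:**
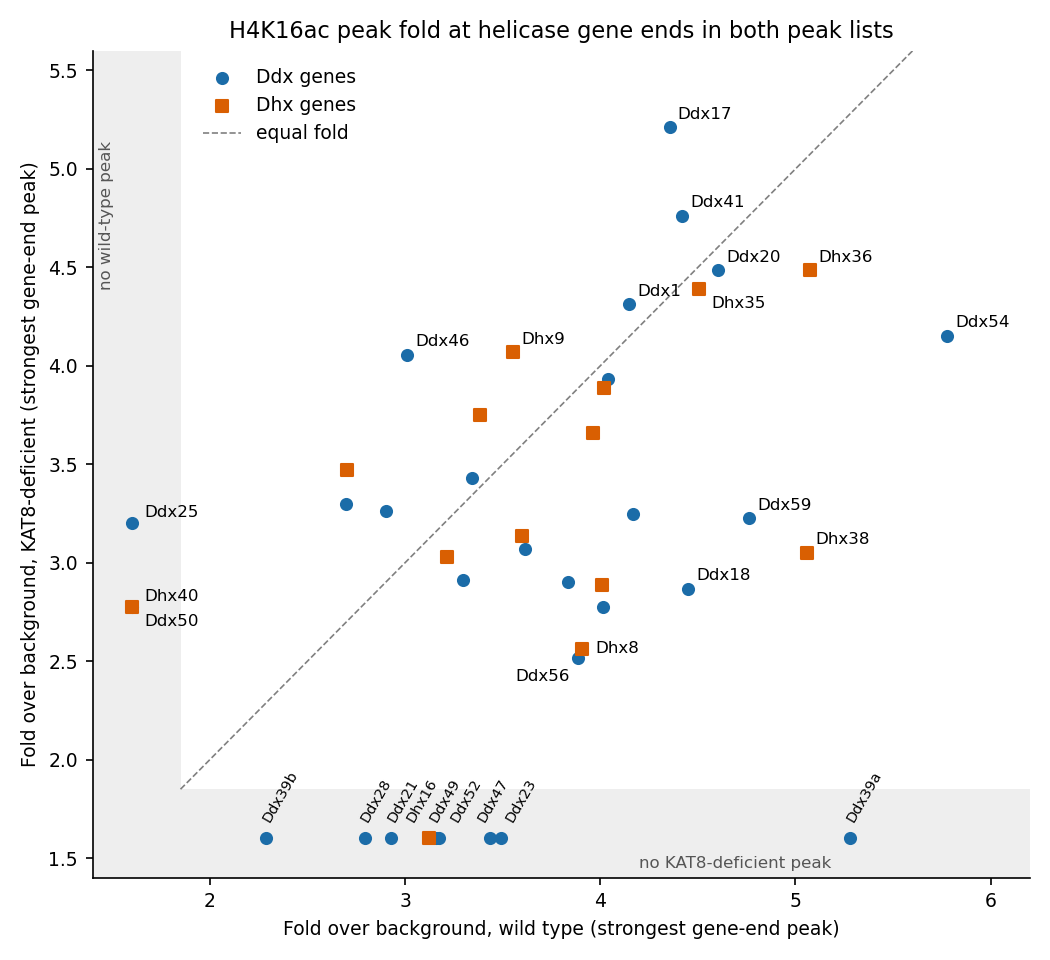
Fold over the peak caller's background of the strongest gene-end peak of each member, WT on the x axis and KAT8-deficient on the y axis; grey strips hold members without a peak in 1 list, and the 7 members with none are not drawn. Of the 30 members with both peaks, 20 lie on the WT side of the dashed line of equal fold, and Ddx39a, at 5.28, is the strongest of the 9 in the lower strip.

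At the 30 members with a peak in both lists, the WT fold was the higher in 20, 66.7% (47.2 to 82.7). Over the 7827 genes of this class it was the higher in 70.4%. The median ratio of WT to KAT8-deficient fold was 1.07 for the members and 1.13 for all genes. Plotted against each other, the folds of both lists scatter around the line of equal fold, with Dhx38, Ddx18, Ddx56 and Dhx8 furthest, by ratio, on the WT side and Ddx46, Dhx57, Ddx27 and Ddx17 furthest on the other. At 25 of the 30 members the strongest peaks of both lists overlapped, 83.3%, beside 82.8% of all such genes. The WT peak was the wider in 18 of these 25 (72%), beside 62.3% of all genes with overlapping strongest peaks. Median widths were 632 bp in WT and 382 bp in KAT8-deficient cells, where over all genes they were 615 and 510 bp. Summits of the paired peaks lay a median of 90 bp apart for members and 113 bp for all genes. Taking the strongest peak of each marked member, 28 of 39 WT peaks (71.8%) and 27 of 33 KAT8-deficient peaks (81.8%) were overlapped by some peak of the other list, beside 66.3% and 71.6% of the strongest gene-end peaks of all genes.

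All 12 members placed among the splicing helicases had a WT peak, where 46.8% of all genes did. Of the 12, 9 had a peak in both lists and 3 in WT cells only. The strongest peak had q under 0.05 at 11 of the 12 in WT cells and at 7 of the 9 in KAT8-deficient cells. Over all marked genes these shares were 78.6% and 72.3%. The 3 without a KAT8-deficient peak are 25% of the 12 (5.49 to 57.2), close to the 23.6% of all WT-marked genes. At the 9 with a peak in both lists, the WT fold was the higher at 5, 55.6%, beside 70.4% of all such genes. Ddx17 and Ddx41 were among those with the higher KAT8-deficient fold. Ddx17, which with its paralog Ddx5 acts in splicing and as a transcriptional coregulator, had a WT fold of 4.35 (−log10 q 6.97) and a KAT8-deficient fold of 5.21 (−log10 q 10.6). Ddx41, a spliceosomal helicase also studied as a DNA sensor, had folds of 4.42 and 4.76, with −log10 q of 7.40 and 10.002. Both genes thus carried the 2 highest KAT8-deficient folds of the family. At Ddx17 the WT peak was the wider, 1501 bp against 1023 bp, and at Ddx41 the narrower, 355 bp against 563 bp. Ddx5 was the reverse of its paralog, with folds of 4.01 and 2.78 and −log10 q of 4.93 and 1.28. The peaks at Ddx5 also fell in the window of Cep95.

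Dhx38, a helicase that remodels the spliceosome between its catalytic steps, had a ratio of WT to KAT8-deficient fold of 1.66, the largest among the members when the strongest peak of each list is taken. Its folds were 5.06 (−log10 q 8.26) and 3.05 (−log10 q 2.10), and both peaks also lay in the window of Txnl4b. Dhx35, a component of the catalytic spliceosome, had nearly equal folds of 4.50 and 4.39, with −log10 q of 8.19 and 7.18. Dhx8, which releases the spliced mRNA, had folds of 3.91 and 2.56, and its KAT8-deficient −log10 q was only 0.663. Dhx15, which disassembles spent spliceosomes, had folds of 3.96 and 3.66. Ddx42, a partner of the branch-site recognition factor SF3B1, had folds of 3.34 and 3.43 in peaks shared with the window of Ccdc47. Ddx46, which acts when the branch site is recognised, had the higher fold in KAT8-deficient cells, 4.06 against 3.01. The 3 members with a WT peak only had folds of 2.29 to 3.49. Ddx23, which acts as the spliceosome matures, had a fold of 3.49 (−log10 q 2.68). Dhx16, which activates the assembled spliceosome, had a fold of 3.13 (−log10 q 2.198). Ddx39b, which loads onto pre-mRNA for splicing and export, had a fold of 2.29 (−log10 q 0.499) at its 3′ end and no peak at its start.

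Ribosome assembly helicases, which act in the nucleolus, made up the largest group, and 13 of 16 were marked in WT cells and 10 of 16 in KAT8-deficient cells, beside 46.8% and 43.3% of all genes. Of the 13, 4 lacked a KAT8-deficient peak, 30.8% (9.09 to 61.4), beside 23.6% of all WT-marked genes. Ddx54 had the strongest WT peak of the whole family, at fold 5.77 and −log10 q 15.5, and a KAT8-deficient peak at fold 4.15 and −log10 q 6.07. Both peaks covered the sequence printed above, at widths of 880 and 1066 bp, and both also lay in the window of Rita1. Ddx18 had folds of 4.45 and 2.87 and Ddx24 4.17 and 3.25, with −log10 q of 5.53 and 1.297 at Ddx18 and of 6.01 and 2.80 at Ddx24. The Ddx18 peak was 986 bp wide in WT cells and 298 bp in KAT8-deficient cells. Ddx10 was nearly level, at folds of 4.04 and 3.93. The Dhx members of the group, Dhx33 and Dhx37, had strongest peaks of 4.01 and 2.88 and of 3.60 and 3.14, though the KAT8-deficient peak of 2.88 at Dhx33 was at its 3′ end, in the window of C1qbp. At the Dhx33 start the folds were 4.01 and 2.35, a ratio of 1.71, and at its 3′ end 2.94 and 2.88. Ddx56 had folds of 3.89 and 2.52 in peaks at its 3′ end that did not overlap.

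Some of this group went the other way or were marked once. Ddx27 had the lowest WT fold of the members marked in both lists, 2.70, and a KAT8-deficient fold of 3.30. Ddx31 had a fold of 2.90 at its start in WT cells, in the window of Gtf3c4, where KAT8-deficient cells also had a peak, of fold 3.04. The strongest KAT8-deficient peak at Ddx31, of fold 3.27, was at its 3′ end, which had no WT peak. The 4 members with a WT peak only had it at the start, with folds of 2.93 to 3.43. Ddx47 had a fold of 3.43 (−log10 q 2.57), Ddx52 3.18 (1.65), Ddx49 3.16 (2.43) and Ddx21, the nucleolar helicase that also binds Pol I and Pol II genes, 2.93 (1.62). The Ddx49 peak covered most of its printed sequence and also lay in the window of Cope. Ddx51 and Ddx55 had no peak in either list. Ddx50, the paralog of Ddx21, had a KAT8-deficient peak only, at its 3′ end (fold 2.78, −log10 q 1.01), and its inner start is described below.

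Ddx39a stood out among the members with a WT peak only. It encodes an mRNA export helicase closely related to Ddx39b. Its peak at chr8:83715184-83715667 was 484 bp wide, with fold 5.28 and −log10 q 11.5, the second of both values in the family's WT list. In fold it lay at percentile 92.0 of all WT-marked genes and in −log10 q at percentile 95.6. The summit was 202 bp inside the lower-coordinate end of the gene. No KAT8-deficient peak overlapped it, and the nearest was 15742 bp away, at fold 2.98 and −log10 q 1.55. Across the gene with 1 kb on both sides, WT cells had 3 peaks and KAT8-deficient cells 0. Without a replicate this difference between 2 libraries could not be set against variation between animals.

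The other members of this group with a peak, 4 genes of export, translation or decay, were marked in both lists. Dhx36, which unwinds G-quadruplexes in RNA and DNA, had folds of 5.07 and 4.48, with −log10 q of 6.70 and 5.41. Ddx19a, an export helicase at the nuclear pore, had folds of 3.61 and 3.07. Dhx29, a helper of start-codon scanning, was higher in KAT8-deficient cells, 3.75 against 3.38, in peaks shared with the window of Mtrex. Dhx34, a factor of nonsense-mediated decay, had a peak of fold 3.21 at its start in WT cells only, and peaks at its 3′ end in both lists, of folds 3.17 and 3.03. Ddx6, the helicase of P-bodies and of decapping, and Ddx19b, the twin of Ddx19a, had no gene-end peak. The nearest WT peak to Ddx6 lay 1220 bp from a gene end, just outside the window, with a fold of 3.16, and the nearest KAT8-deficient peak 1931 bp away.

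The small groups differed mainly in the germ cell genes. Ddx20, Ddx1 and Dhx9, which serve the SMN complex, tRNA ligation and transcription, were all marked in both lists. Ddx20 had folds of 4.61 and 4.48 and Ddx1 4.15 and 4.31, with −log10 q between 4.70 and 5.84 at both genes. The strongest Ddx20 peaks were separate regions 102 bp apart. Dhx9 was higher in KAT8-deficient cells, 4.07 against 3.55. Of the mitochondrial helicases, Dhx30 had folds of 4.02 and 3.89, and Ddx28 a WT peak only (fold 2.79, −log10 q 2.04) in the window of Dus2. Ddx60, an interferon-induced antiviral cofactor, had folds of 3.83 and 2.90, and the DNA helicase gene Ddx11 3.29 and 2.91.

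None of the 3 germ cell genes had a WT peak. Ddx4, the vertebrate Vasa, and Ddx43 had none in either list. Ddx25, a testis helicase, had a KAT8-deficient peak (fold 3.20, −log10 q 1.87), in a region that also lay in the window of Pus3. The nearest WT peak was 10979 bp away. Among members of other or less studied roles, Ddx59 had folds of 4.76 and 3.23, with −log10 q of 7.01 and 2.09. Dhx57 had 2.70 and 3.47, in peaks also in the window of Morn2. Dhx40 had a KAT8-deficient peak only (fold 2.78, −log10 q 1.01), with the nearest WT peak 26107 bp away, and Dhx32 had none at its gene ends.

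**Figure D2:**
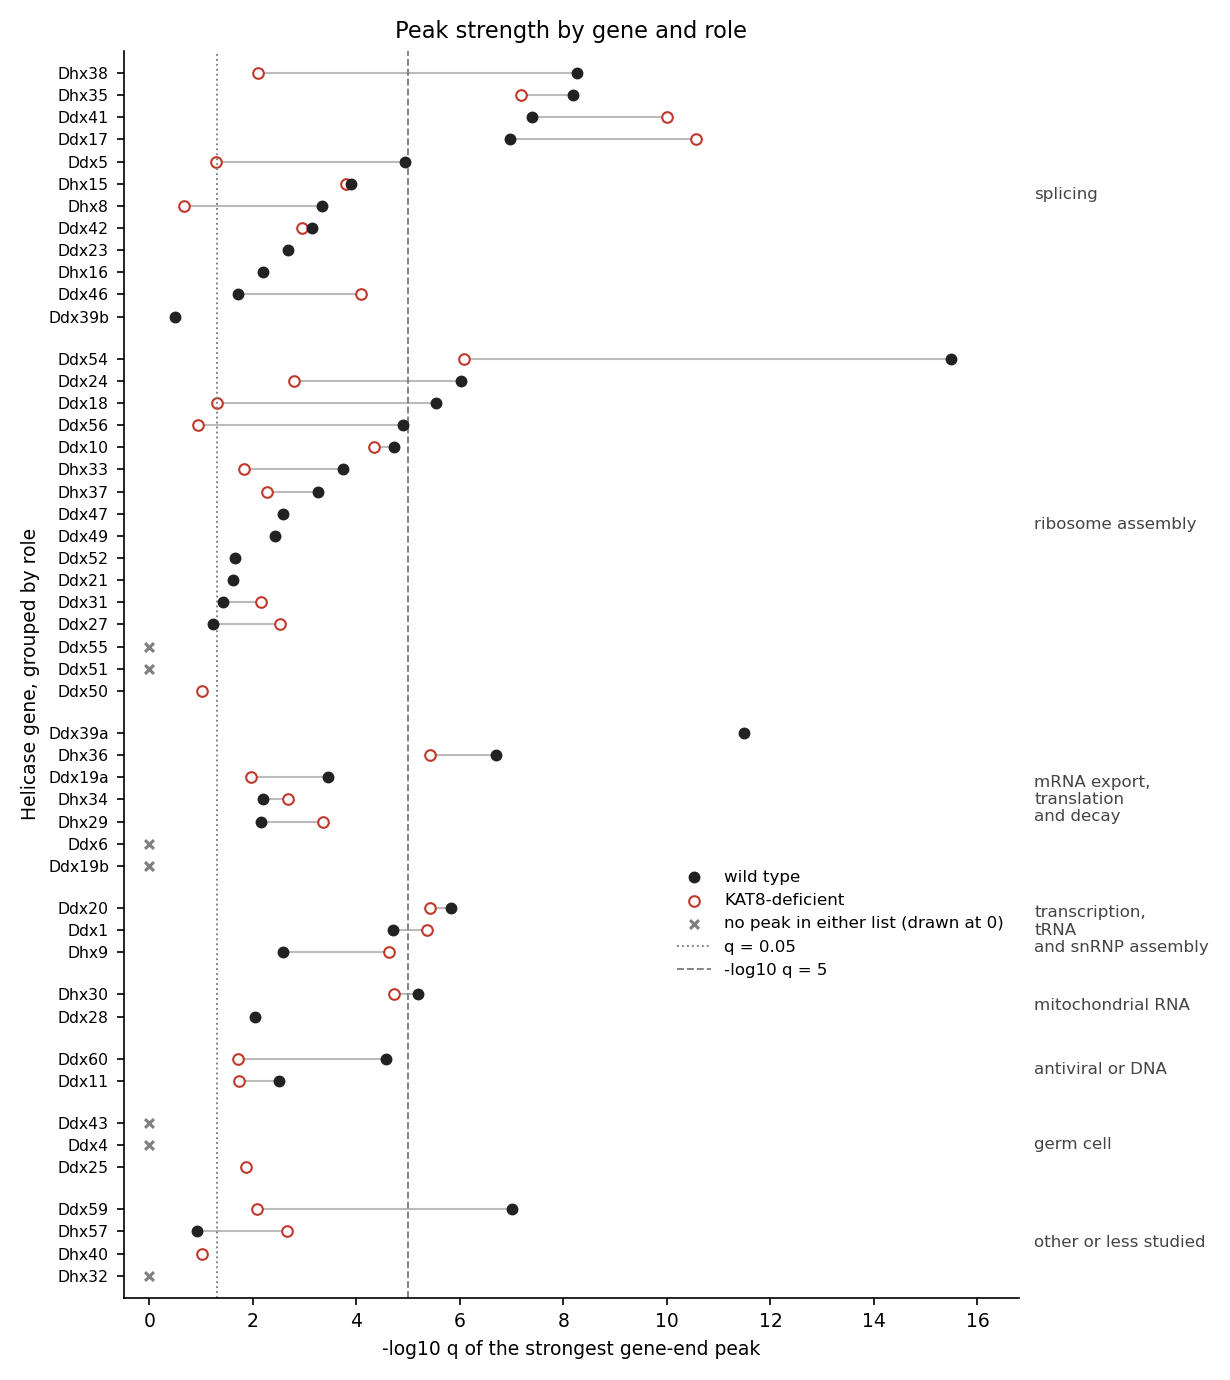
−log10 q of the strongest gene-end peak (x axis) of each of the 49 members (y axis), grouped by role, with WT as filled and KAT8-deficient as open circles and crosses at 0 for members without a peak; the dotted line is q = 0.05 and the dashed line −log10 q = 5. Ddx54 at 15.5 and Ddx39a at 11.5 are the 2 strongest WT points, and Ddx17 at 10.6 and Ddx41 at 10.002 the 2 strongest KAT8-deficient points.

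With 1 kb windows and all peaks, as many Dhx genes were marked in KAT8-deficient as in WT cells, while fewer Ddx genes were. This equality did not hold under every choice of peaks and window, and the difference between the families was not tested. In WT cells 26 of 34 Ddx genes (76.5%, 58.8 to 89.3) and 13 of 15 Dhx genes (86.7%, 59.5 to 98.3) were marked. In KAT8-deficient cells 20 of 34 Ddx genes (58.8%, 40.7 to 75.4) and again 13 of 15 Dhx genes were. Of the WT-marked genes, 8 of 26 Ddx (30.8%, 14.3 to 51.8) and 1 of 13 Dhx (7.69%, 0.195 to 36.0) lacked a KAT8-deficient peak. Over all WT-marked protein-coding genes 23.6% did. The intervals of the families overlap at each of these comparisons. The 13 Dhx genes were not the same ones, as Dhx16 had a WT peak only and Dhx40 a KAT8-deficient peak only. With q under 0.05 the WT and KAT8-deficient counts were 24 and 16 for Ddx and 12 and 11 for Dhx, beside 36.8% and 31.3% of all genes. At the 5′ end alone 5 of 21 WT-marked Ddx and 2 of 12 WT-marked Dhx genes lacked a KAT8-deficient peak. Over all genes with a strand, 1738 of 7592 WT-marked genes did. Median folds were similar, at 3.72 and 3.91 in WT cells and 3.26 and 3.47 in KAT8-deficient cells for Ddx and Dhx. Median −log10 q was higher for Ddx in WT cells, 4.01 against 3.33. In KAT8-deficient cells it was higher for Dhx, 2.68 against 2.34. Where both lists had a peak, the WT fold was the higher at 11 of 18 Ddx and 9 of 12 Dhx genes.

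**Figure D3:**
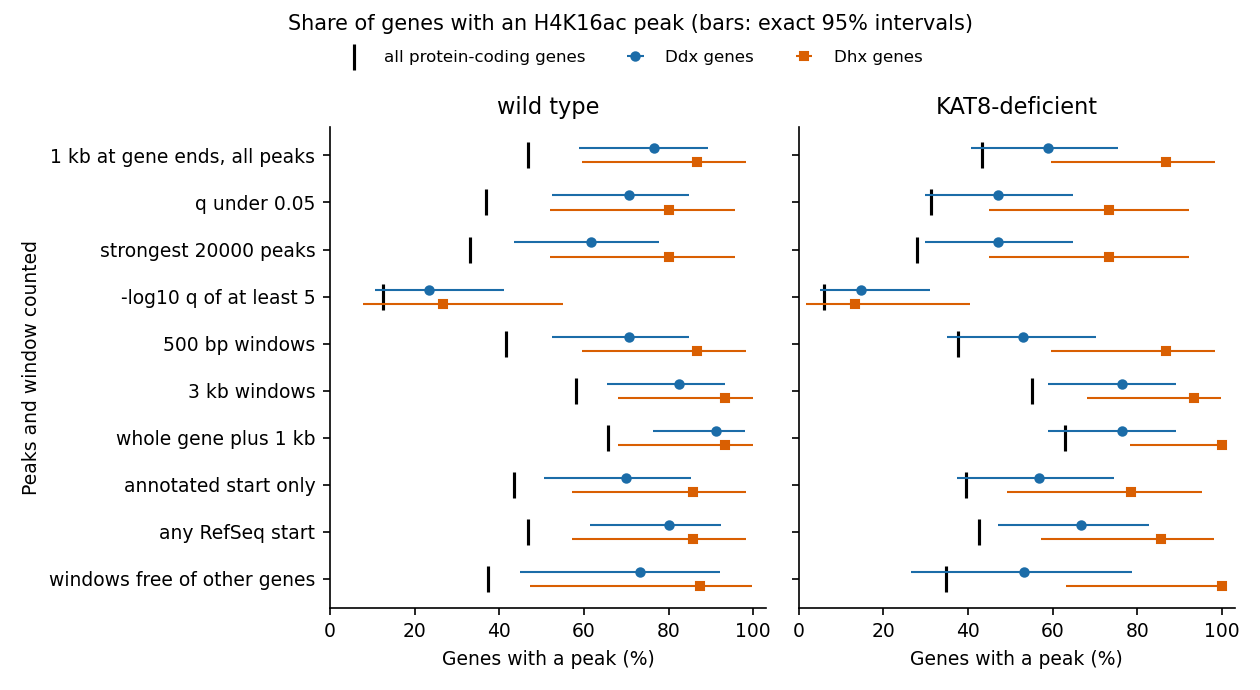
Share of Ddx genes (circles) and Dhx genes (squares) with a peak, in percent (x axis), under each choice of peaks and window (y axis), with exact 95% intervals as horizontal bars and all protein-coding genes as vertical ticks. Both families lie above all genes under each of the 10 choices in both lists, and the Dhx point is right of the Ddx point in each row but that of KAT8-deficient peaks with a −log10 q of at least 5. The row of the annotated start counts the 5′ end of the annotated gene.

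Position within the gene could be read for the 44 members whose strand a RefSeq promoter table gives. The 5 without are Ddx6, Ddx11, Ddx23, Ddx39a and Dhx38. The start was taken here as the 5′ end of the annotated gene, which can lie outside a RefSeq transcription start. A RefSeq start lay 7546 bp inside this end at Ddx50, 2057 bp at Ddx56 and 217 bp at Ddx20. The 5′ end was marked at 33 of 44 members in WT cells (75%) and 28 in KAT8-deficient cells (63.6%). Of 17492 genes with a strand, 43.4% and 39.6% were. The 3′ end was marked at 9 members in WT cells (20.5%) and 8 in KAT8-deficient cells (18.2%), beside 10.8% and 9.79% of all genes. The strongest peak was the one at the 5′ end in 33 of 35 marked members in WT cells (94.3%) and 26 of 31 in KAT8-deficient cells (83.9%). Over all marked genes with a strand it was in 87.7% and 86.4%.

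**Figure D4:**
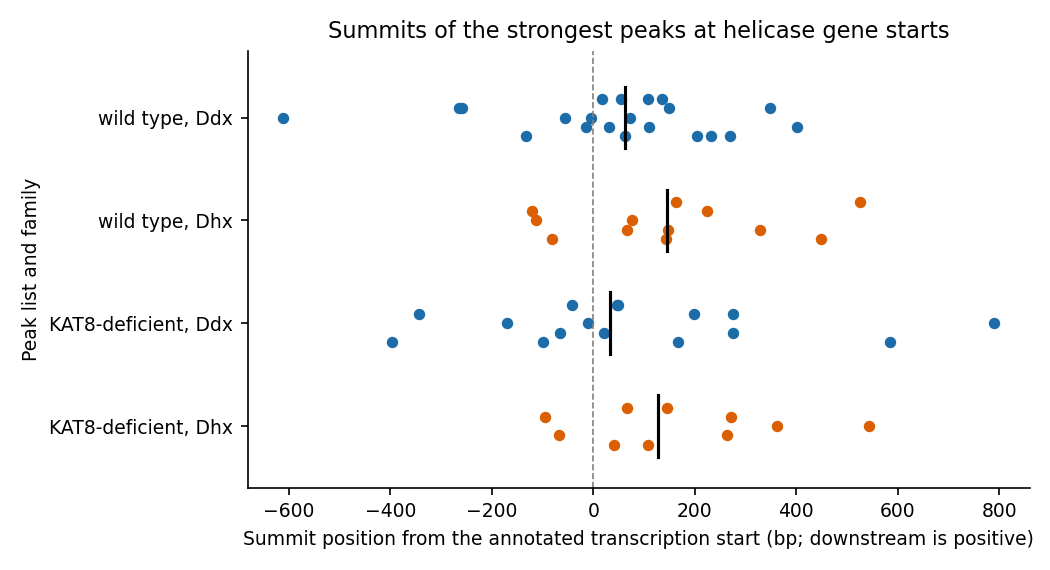
Distance in bp of the summit of the strongest start peak from the 5′ end of the annotated gene, by list and family. This end is what the x axis calls the annotated transcription start, and downstream is positive. Each point is 1 gene and the black bar is the median. The WT medians are 62 bp for Ddx and 145.5 bp for Dhx genes, and the KAT8-deficient medians 33.5 and 127 bp.

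Summits lay close to the 5′ end of the annotated gene and more often downstream of it. In WT cells 31 of the 33 start summits were within 500 bp, 23 were downstream and 10 upstream, and the median was 77 bp downstream. In KAT8-deficient cells 23 of 26 were within 500 bp and the median was 57.5 bp downstream. Over all genes the medians were 62 and 90.5 bp. The furthest upstream WT summit, at −611 bp, was that of Ddx42, in the peak that also lay in the window of Ccdc47. The summits of Ddx17 sat at −4 and −11 bp from the 5′ end of its annotated gene, and that of Dhx9 at 66 bp in both lists. Their nearest RefSeq starts lie 23 and 28 bp inside the gene. At Ddx20 the WT summit lay 204 bp inside the gene, upstream of the RefSeq start at 217 bp.

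Some genes have RefSeq starts inside the annotated gene, beyond the window of the rule, and these alter the picture of 4 members. The members in the promoter table have 55 starts, and 9 members have several. This count was added after the values were seen. Ddx50 has a start 7546 bp inside the gene, the one whose upstream sequence is printed above, and both lists had a peak there. The WT fold was 4.77 (−log10 q 6.74, chr10:62650866-62651768) and the KAT8-deficient fold 3.84 (−log10 q 3.49), so Ddx50 was marked in both genotypes at this start. Ddx19b, unmarked at its ends, had a peak in both lists at a start 3981 bp inside the gene, with folds of 3.33 and 2.91, in the window of Aars. Ddx56 had weak peaks of 2.52 and 2.61 at a start 2057 bp inside.

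Dhx32 showed the reverse of Ddx39a at such a start, 5982 bp inside the gene. A KAT8-deficient peak 1157 bp wide, with fold 4.53 and −log10 q 5.79, was overlapped by no WT peak, and the nearest WT peak to the start was 28805 bp away. The region also lay in the window of Fank1. Counted at any RefSeq start, 36 of 44 members were marked in WT cells (81.8%) and 32 in KAT8-deficient cells (72.7%), where 46.7% and 42.7% of all genes were. By this count 29 members were marked in both lists (65.9%), 7 in WT cells only (15.9%) and 3 in KAT8-deficient cells only (6.82%). Over all genes these classes held 36.4%, 10.3% and 6.29%. The 5 members with neither (11.4%, beside 47.0% of all genes) were Ddx4, Ddx39b, Ddx43, Ddx51 and Ddx55.

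Most members have CpG-rich upstream sequence. In the 250 bases before the start the 44 members had a median of 19 CpG (quartiles 16 and 23.25, range 4 to 34), and 17486 genes had a median of 10. Over all genes CpG content moved with the peaks at that start, with medians of 18 where both lists had a peak, 12 and 11 where WT or KAT8-deficient cells alone had one, and 3 where neither had. The share of all genes with a WT peak was 12.2% at 0 to 4 CpG, 39.1% at 5 to 9, 60.9% at 10 to 14, 71.5% at 15 to 19 and 73.7% at 20 or more. The members had both more peaks and more CpG than all genes, and the part of CpG content in the share of peaks was not tested.

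A CpG-rich start did not always carry a peak, within the family or over all genes. The 7 members without a peak within 1 kb of the start had a median of 25 CpG, and Ddx51 had 32, Ddx4 31, Ddx55 27, Ddx39b 25 and Ddx43 20. The other 2, Dhx32 with 10 CpG and Ddx19b with 5, were at or below the median of all genes. At 20 or more CpG, 13 of 19 members (68.4%) were marked in each list, beside 73.7% of all genes in WT and 68.1% in KAT8-deficient cells. At 15 to 19 CpG 15 of 16 members were marked in WT cells and 13 of 16 in KAT8-deficient cells, beside 71.5% and 66.3%. At the other extreme, Dhx57 with 4 CpG and Ddx60 with 5 were marked in both lists.

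**Figure D5:**
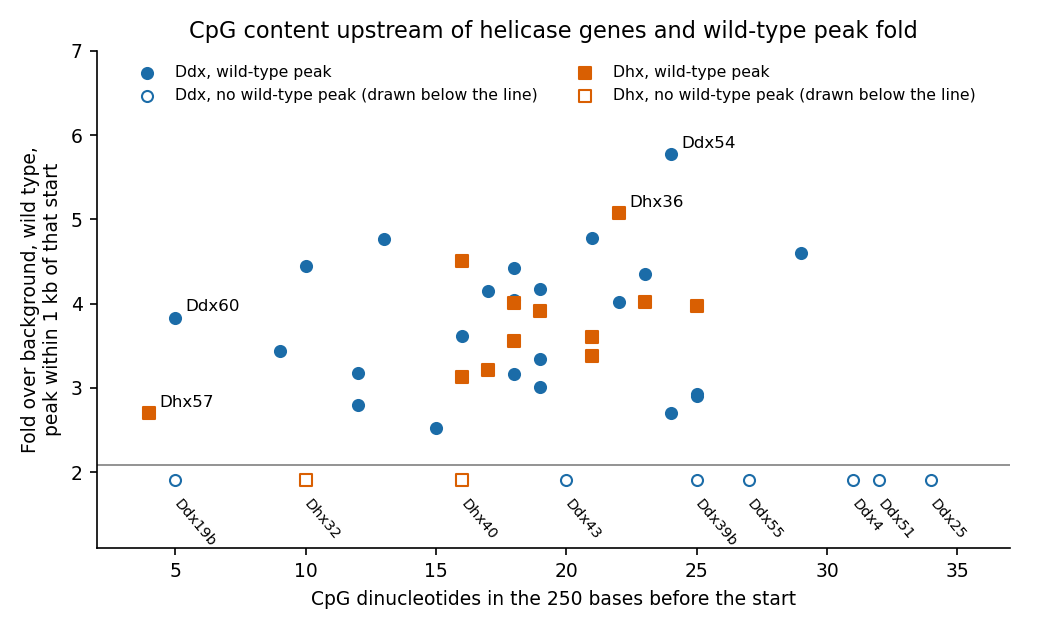
CpG dinucleotides in the 250 bases before the start (x axis) and fold of the strongest WT peak within 1 kb of that start (y axis) for the 44 members, with open symbols below the line for members without such a peak. Ddx51, Ddx4 and Ddx25, at 32, 31 and 34 CpG, lie below the line, and Dhx57 at 4 and Ddx60 at 5 CpG lie above it.

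Short motifs, 7 in all and chosen after the values were seen, were searched on both strands of the same 250 bases, and none of them contains another. The ETS-type motif CCGGAAG was in 14 of 44 members, 31.8% (18.6 to 47.6), beside 9.15% of all genes and 16.4% of those with a start peak in both lists. Ddx54, Ddx17, Dhx36, Ddx49 and Ddx50 hold it in the sequences printed above. The cyclic AMP response element TGACGTCA was in 4 members, Ddx19a, Ddx49, Ddx51 and Dhx36, 9.09% (2.53 to 21.7) beside 1.98% of all genes and 3.24% of genes marked in both. The GC box GGGCGG was in 27 members (61.4%), beside 42.7% and 64.9%, and CCAAT in 21 (47.7%), beside 36.5% and 39.1%. The NRF1 motif was in 6 (13.6%), beside 5.32% and 10.7%. The E-box CACGTG was in 4 (9.09%), beside 6.66% and 8.35%. TATAAA was in 0 of 44, which allows a share of up to 8.04%, beside 12.4% and 4.86%. Among the members with the ETS-type motif, Ddx49 and Dhx16 had a start peak in WT cells only, and Ddx39b and Ddx55 had none at the start.

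Helicases with other names, and the cofactors of both families, were also mostly marked in both lists, where 35.8% of all genes were. Of 21 helicases with other names, 11 were marked in both lists, 3 in WT cells only, 3 in KAT8-deficient cells only and 4 in neither. Over all genes these classes held 35.8%, 11.1%, 7.52% and 45.7%. Ascc3, a helicase of the alkylation repair and ribosome quality control complex, had folds of 7.78 and 5.77, above every Ddx or Dhx gene of the same list. Ythdc2, a meiotic helicase, had 4.15 and 4.48, and the translation factor Eif4a2 3.83 and 4.70. Ighmbp2 (2.23), Helz (2.73) and Helz2 (2.88) had WT peaks only, and Skiv2l (2.98), Aqr (2.31) and Supv3l1 (2.50) KAT8-deficient peaks only.

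Of 16 G-patch cofactors of DEAH helicases, 11 were marked in both lists, 3 in WT cells only and 2 in neither. Gpatch11 had folds of 6.42 and 5.13, the splicing factor Sugp1 5.08 and 3.33 and Rbm5 4.71 and 3.39. Gpatch8 (3.83), Gpatch3 (3.27) and Tfip11 (2.81) had WT peaks only. Of 9 genes grouped here as MIF4G-type or related partners of DEAD helicases, not all of them activators, 7 were marked in both lists. Pdcd4 was marked in WT cells only (fold 2.58) and 1 in neither. Among them the translation factors Eif4g2 and Eif4g1 had folds of 4.64 and 3.22 and of 4.27 and 3.47, and Paip1 4.30 and 4.27.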

How the data were processed

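H4K16ac was measured by CUT&Tag in 2 libraries of R848-treated macrophages, 1 WT and 1 KAT8-deficient, grouped by the genotype label. The submitters' processing notes name mm10 as the build, and Bowtie 0.12.8, DiffBind and MACS2 2.2.7.1 as tools without saying what each did. The sources used here do not give how peaks were called, whether a control was used or how duplicates were handled. Each peak list deposited by the authors gives a score, a fold over background, −log10 p and −log10 q, and a summit offset. The deposited score is 10 times −log10 p in nearly every row and was not analysed further. The fold (a ratio) and the −log10 q were used as deposited, and no peak was removed.

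Gene ends came from the RefSeq table of GRCm38.p6. A gene was marked by any peak within 1 kb of an annotated end, and the peak with the highest fold represented it. Strand, starts and upstream sequences came from a RefSeq promoter table that held 44 of 49 members. A region counted as shared with at least 1 bp of overlap. Peaks at paired neighbours can belong to either gene. Shares carry exact Clopper-Pearson 95% intervals. The code was tested on simulated peaks. Versions were Python 3.11.15, pandas 2.3.3, NumPy 2.4.6, SciPy 1.17.1 and matplotlib 3.10.9.

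The members, lists and alternatives were chosen with earlier results of these data known. Values were to be named for members marked in 1 list, for the 8 highest folds per list, for a −log10 q of at least 5 and for the lowest WT fold among members marked in both lists. Values of further members complete their role groups, and these, the printed sequences of Ddx50, Ddx51 and Dhx57, the motifs and the inner starts were chosen after the values were seen. Role groups follow textbook functions. Alternatives covered q thresholds, the strongest 20000 peaks, other windows, the 5′ end of the annotated gene alone, windows free of other genes and stricter overlap.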

Additional observations from a re-analysis of the deposited data

How the results depend on the processing

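With a −log10 q of at least 5, the count of marked members became 12 in WT cells (8 Ddx and 4 Dhx) and 7 in KAT8-deficient cells (5 Ddx and 2 Dhx), with 1 member, Ddx1, in KAT8-deficient cells only. Kept to the 23 members whose windows touch no other gene's, so with fewer genes tested, it was 18 in WT cells (11 Ddx and 7 Dhx) and 16 in KAT8-deficient cells (8 Ddx and 8 Dhx). These are 78.3% and 69.6% of the 23, beside 37.4% and 34.8% of the 14839 genes with such windows. Of the 23, 3 were marked in WT cells only (13.0%, beside 9.87%) and 1 in KAT8-deficient cells only (4.35%, beside 7.25%). The other 65 of 80 values under alternatives stayed within 1.5 times the reported count, within the interval of a share, or, for a median, within the SD over members. The 6 members in WT cells only at a −log10 q of at least 5 are among these 65. With windows of 500 bp, 37 and 31 members were marked in WT and KAT8-deficient cells (41.7% and 37.6% of all genes). With 3 kb there were 42 and 40 (58.1% and 55.1%), with the whole gene 45 and 41 (65.7% and 63.0%) and with the strongest 20000 peaks 33 and 27 (33.0% and 27.99%), so the shares of all genes rose and fell with those of the members. Counting any RefSeq start, an alternative chosen after seeing the data, moved Ddx50 and Ddx19b to both lists and Dhx32 to KAT8-deficient cells only, and in the other direction Dhx34 from both lists to WT cells only and Ddx39b from WT cells only to neither. No paired analysis was possible because each genotype has 1 library, and no replicate could be left out. Depth is unknown, so a missing peak does not show that H4K16ac is absent.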
